A study of Mus musculus with 4 samples.

Results

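MicroRNA genes were followed across 4 expression arrays of E14tg2a mouse embryonic stem cells. A microRNA gene was taken where a probe set with exactly 1 gene symbol carried a symbol of Mir followed by a digit, or of Mirlet7, and where the highest of its 4 values was at least 1. Where a gene had several such probe sets, the one with the highest mean stood for it. By this rule 107 of the 483 microRNA genes with such a probe set were described, out of 22180 genes in all. They were thus chosen by their deposited values on these same 4 arrays, so that they reach 1 is no result. Just above the limit lay Mir361 and Mir467c, with a highest value of 1.0 each, and Mir1968 with 1.01. Just below it lay Mir669h, Mir140 and Mir721, with 0.99 each.

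The cells were wild type (WT) or a Ctbp1/2 double knockout (DKO), which removes a pair of transcriptional corepressors, and all were grown in serum with LIF. Each genotype was sampled at d0 and at d2, with 1 array per group, all on strip 2. Sets of 4 values below are in the order WT at d0, WT at d2, DKO at d0, DKO at d2. The series concerns overexpression of PRDM14, a transcriptional regulator of the germ line and of naive pluripotency. The start and means of that overexpression, the cells that carry it and the number of knockout clones are missing from the labels, and d0 and d2 are assumed to count days from its start. Suz12-knockout cells, also named in the series title, were not analysed here.

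MicroRNAs are transcribed as long primary transcripts, many of them inside introns of other genes. Drosha with Dgcr8 cuts out a hairpin, Dicer1 trims it to a short duplex, and an Argonaute protein keeps 1 strand, whose seed, bases 2 to 8 from the 5′ end, pairs with target messenger RNAs. Embryonic stem cells are known for microRNAs of the Mir290 to Mir295 and Mir302 clusters, which carry related seeds and promote rapid cycling. The let-7 family, whose maturation Lin28 proteins block, belongs to differentiated cells. Which form of these RNAs each probe set reads (primary transcript, hairpin or mature strand) is not stated in the labels or the files.

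The RefSeq microRNA table of GRCm38.p6 was used without the entries of a whole chromosome. As used, it held mature sequences for 89 of the 107 genes, 154 in all, with 150 different seeds. Shared seeds are shown first: 4 let-7 genes share GAGGUAG, and Mir181c and Mir181d share ACAUUCA. In each line below the capitals mark the seed.
let-7a-5p (Mirlet7a-1): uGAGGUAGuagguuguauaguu
let-7e-5p (Mirlet7e): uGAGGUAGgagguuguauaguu
let-7i-5p (Mirlet7i): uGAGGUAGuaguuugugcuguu
let-7c-5p (Mirlet7c-1): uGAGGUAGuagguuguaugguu
miR-181c-5p (Mir181c): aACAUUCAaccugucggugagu
miR-181d-5p (Mir181d): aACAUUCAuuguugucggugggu
Over 22 bases, let-7a-5p differed from let-7c-5p and from let-7e-5p at 1 base and from let-7i-5p at 4. The hairpin of Mirlet7a-2 also holds the whole of let-7a-5p, so the same mature strand can come from either gene.

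Among the microRNAs known for embryonic stem cells, 2 mature strands from these genes held the letters AAGUGC within their first 9 bases, the motif of that seed family. It was found in 19 of 1679 mature names in the RefSeq table as used (1.13%).
miR-290a-3p (Mir290a): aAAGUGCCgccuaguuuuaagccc
miR-17-5p (Mir17): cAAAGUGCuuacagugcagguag
The motif begins at base 2 of the first and at base 3 of the second.

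Another set is shown for genes at least 2-fold apart in 1 or more of the 4 comparisons, chosen among those for which the table holds a mature sequence. It holds 14 of these genes, and it is not a ranking by size.
miR-483-5p (Mir483): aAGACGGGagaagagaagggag
miR-483-3p (Mir483): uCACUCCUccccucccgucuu
miR-128-3p (Mir128-2): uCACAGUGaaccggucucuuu
miR-339-5p (Mir339): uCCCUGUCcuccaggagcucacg
miR-345-5p (Mir345): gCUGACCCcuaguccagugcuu
miR-346-5p (Mir346): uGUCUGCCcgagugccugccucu
miR-7a-5p (Mir7-1): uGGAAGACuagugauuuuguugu
miR-451a (Mir451a): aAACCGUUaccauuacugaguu
miR-26b-5p (Mir26b): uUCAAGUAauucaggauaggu
miR-186-5p (Mir186): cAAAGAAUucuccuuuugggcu
miR-761 (Mir761): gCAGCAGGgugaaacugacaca
miR-1195 (Mir1195): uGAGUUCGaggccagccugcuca
miR-680 (Mir680-2): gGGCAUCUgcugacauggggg
miR-1960 (Mir1960): cCAGUGCUguuagaagagggcu
miR-1963 (Mir1963): uGGGACGAgaucaugaggccuuc
No seed in this set recurred in another of the 89 genes with a mature sequence.

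For the let-7 gene with the highest values and for 2 of the genes with large differences, the whole hairpin is given, with both mature strands in capitals. The Mirlet7a-1 hairpin lies at chr13:48538179-48538272 on the minus strand, the Mir345 hairpin at chr12:108836973-108837068 on the plus strand and the Mir483 hairpin at chr7:142654924-142654996 on the minus strand, all in GRCm38.p6.
Mirlet7a-1 hairpin: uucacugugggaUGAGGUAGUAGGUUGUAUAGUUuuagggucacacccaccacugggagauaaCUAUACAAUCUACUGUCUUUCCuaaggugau
Mir345 hairpin: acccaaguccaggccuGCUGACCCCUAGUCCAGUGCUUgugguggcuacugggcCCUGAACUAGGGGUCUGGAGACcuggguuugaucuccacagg
Mir483 hairpin: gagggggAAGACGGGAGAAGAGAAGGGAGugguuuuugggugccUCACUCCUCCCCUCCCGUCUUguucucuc
The 3 hairpins are 94, 96 and 73 bases long.

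Values are the deposited RMA values, assumed to be on the log2 scale, which makes a difference of 1 a 2-fold difference. Over all probe sets the array medians were 0.354, 0.367, 0.365 and 0.412. The labelled genotypes and the labelled overexpression could not be read from the genes concerned. Ctbp1 read 0.63, 0.32, 0.56 and 0.42, Ctbp2 read 0.55, 0.46, 0.55 and 0.42, and Prdm14 read 0.34, 0.42, 0.24 and 0.68, all below 1 on all 4 arrays. Of 10 embryonic stem cell markers, all on the array, 3 reached 1 on some array: Dppa5a, Dppa3 and Lin28a. So did 1 of 5 primitive endoderm and 1 of 5 fibroblast feeder markers, and 11.9% of genes other than microRNA genes. Pou5f1, Sox2 and Nanog stayed below 1 on all 4 arrays, so the labelled cell type could not be read from these markers. With 1 array per group, no difference between 2 arrays has an error or a replicate check. These are bulk samples, so fewer cells of a type and less RNA per cell cannot be told apart.

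Most of the 107 genes were low, and a few were among the brightest genes measured. The number that reached 1 was 72, 69, 67 and 75 on the 4 arrays, and their median value was 1.19, 1.16, 1.21 and 1.32. On all 4 arrays 41 genes reached 1, and the median of their means was 3.12. On 1 array alone 33 genes reached 1: 7 in WT at d0, 6 in WT at d2, 2 in DKO at d0 and 18 in DKO at d2. A gene that reached the limit on 1 array had to be high there, so these counts partly follow from the rule. Levels of different genes also depend on their probes, so their order below is an order of signal and not of abundance.

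Mir5112 gave the highest signal, at 8.34, 8.54, 8.41 and 8.11. It was the highest of the 20015 genes counted on the first 3 arrays, and its 4 values lay within 0.42 of each other. Mir680-2 followed at 7.59, 6.49, 6.54 and 7.19, highest on the WT d0 array. Mir187 read 7.29, 6.59, 6.41 and 6.70, also highest there. Mir1195 read 7.23, 7.23 and 7.24 on the first 3 arrays and 5.01 on DKO d2. It was thus near-level on 3 arrays and lower on the fourth, with a DKO d2 minus d0 difference of -2.23.

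**Figure D1:**
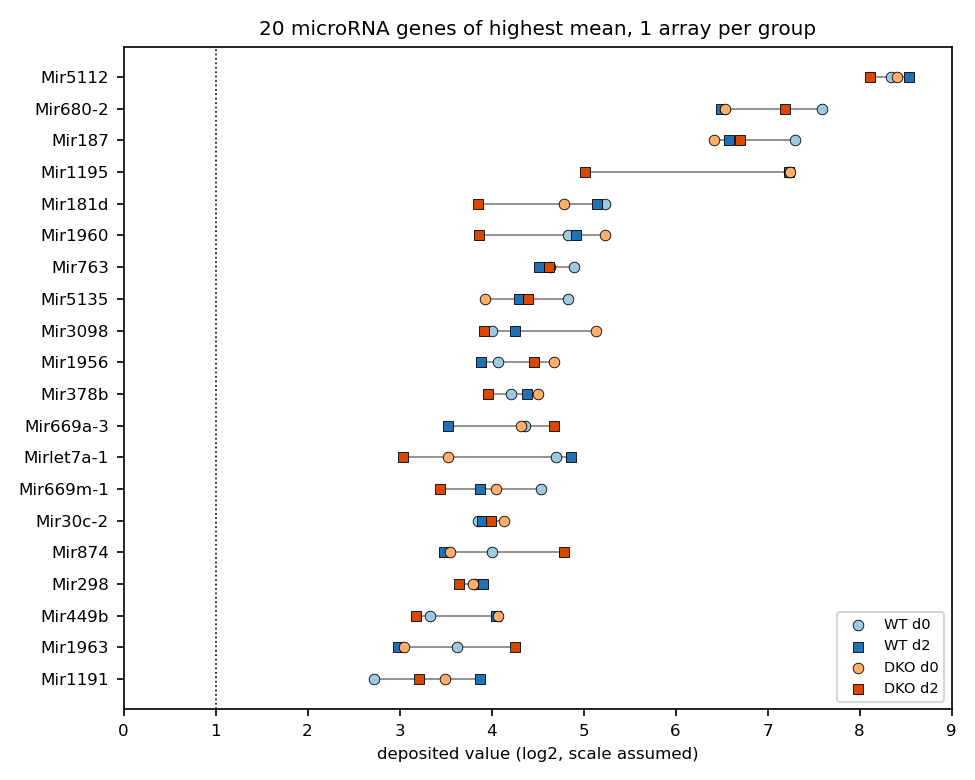
Deposited values (log2, scale assumed) of the 20 microRNA genes with the highest mean, with 1 point per array and a line from the lowest to the highest; circles are d0, squares d2, blues WT and oranges DKO, and the dotted line marks 1. The points of Mir1195 lie near 7.23 on 3 arrays and at 5.01 on DKO d2, while those of Mir298 span 0.25.

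Several genes of the next rank differed little between arrays. Mir298, an imprinted microRNA near Nespas, read 3.82, 3.90, 3.79 and 3.65. Mir30c-2, of the broadly expressed miR-30 family, read 3.86, 3.90, 4.13 and 3.99. Mir763, which lies within Hmga2, read 4.90, 4.51, 4.63 and 4.62. In all, 19 of the 107 genes had 4 values within 0.5 of each other. Others of similar level spread more widely. Mir3098 read 4.0, 4.26, 5.14 and 3.92, highest on DKO d0, and Mir874 read 4.01, 3.48, 3.55 and 4.79, highest on DKO d2. Mir1960 read 4.83, 4.92, 5.23 and 3.87, lowest on DKO d2. The rest of the 20 highest, Mir5135, Mir1956, Mir378b, Mir669a-3, Mir669m-1, Mir449b, Mir1963 and Mir1191, had values between 2.73 and 4.83, apart from the Mir181d and Mirlet7a-1 genes described with their families.

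The let-7 family was represented by 12 genes with a probe set of their own, 11 named let-7 and Mir98, and 4 of them reached 1. Mirlet7a-1 was the highest, at 4.70, 4.86, 3.53 and 3.04. Both DKO arrays were lower than both WT arrays, with differences of -1.17 at d0 and -1.82 at d2. Mirlet7e read 2.46, 2.26, 2.03 and 2.79, with WT and DKO overlapping. A second probe set of Mirlet7e read 0.16, 0.22, 0.21 and 0.15, so its level depends on the probe set chosen. Mirlet7i read 1.16, 1.05, 1.03 and 1.38, and Mirlet7c-1 read 0.43, 1.08, 0.65 and -0.15. The Mirlet7c-1 values pass 1 on WT d2 alone and overlap between genotypes.

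The neighbours of Mirlet7a-1 in the genome, and the other gene that holds the same mature strand, gave low signal. Mirlet7f-1, its neighbour in the genome, read 0.19, 0.19, 0.05 and 0.41, and Mirlet7d, the next in the same cluster, read 0.32, 0.74, 0.33 and 0.13. Mirlet7a-2, which encodes the same mature let-7a-5p from another locus, read 0.65, 0.14, 0.85 and 0.49. All 3 stayed below 1, where a decrease of the size seen at Mirlet7a-1 could not be read. With the limma fit, Mirlet7a-1 differed between genotypes by -1.5 ± 0.43 (SE, log2), and the adjusted p was 0.943.

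**Figure D2:**
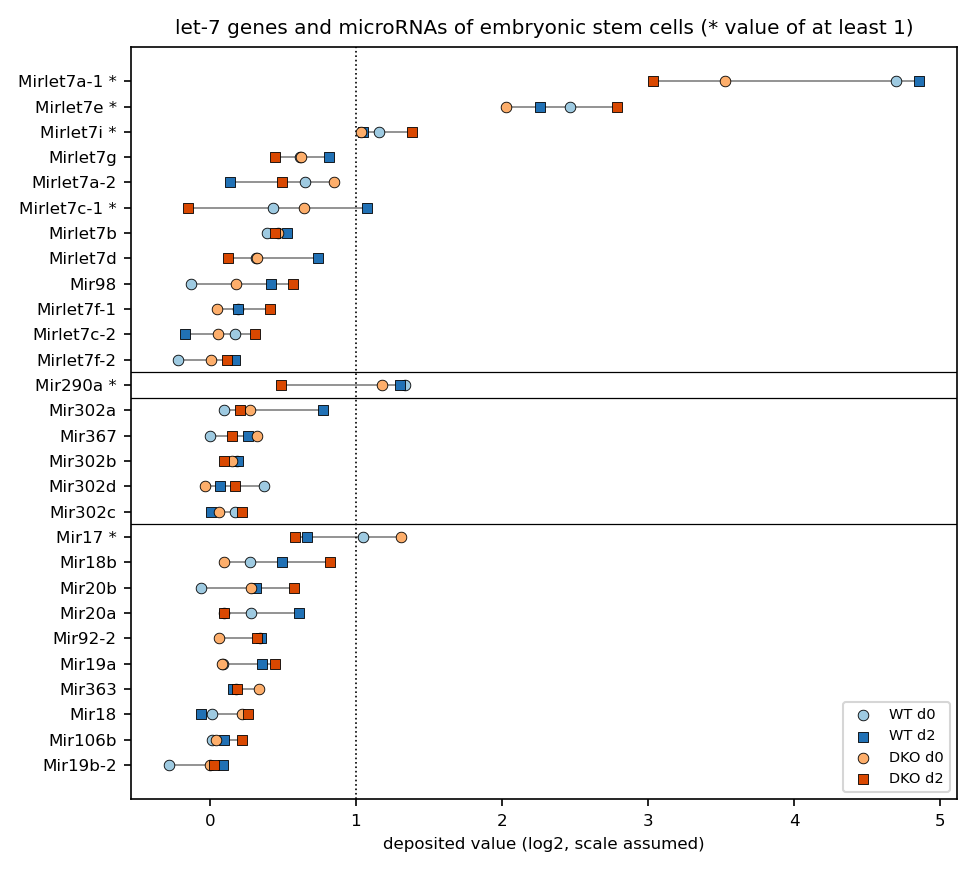
Deposited values (log2, scale assumed) of the let-7 genes, the Mir290a gene, the Mir302 and Mir367 cluster, and the Mir17 to Mir92 cluster with its paralogs, 1 point per array; circles are d0, squares d2, blues WT and oranges DKO, and stars mark genes that reached 1. Mirlet7a-1 has its WT points at 4.70 and 4.86 and its DKO points at 3.53 and 3.04, and all 5 genes of the Mir302 and Mir367 cluster stay at or below 0.78.

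Most genes of the microRNA families known from embryonic stem cells stayed below 1. Most microRNA genes on the array did so too, since 22.2% of them reached 1. Nothing about these families is therefore read from their counts. Of the 9 genes listed for the Mir290a to Mir295 cluster, Mir290a had a probe set of its own. It read 1.34, 1.30, 1.18 and 0.49, with DKO d2 the lowest. All 5 genes of the Mir302 and Mir367 cluster, which marks a later pluripotent state, were on the array, and none reached 1. Their values ran from -0.04 to 0.78. For the Mir17 to Mir92 cluster and its paralogs, a growth-promoting group, 10 of 15 genes had a probe set, and Mir17 alone reached 1. Mir17 read 1.05, 0.67, 1.31 and 0.58, higher on both d0 arrays than on both d2 arrays. Of the Mir200 family, which maintains epithelial character, 4 of 5 genes were on the array. Mir200c alone reached 1, and it read 0.92, 0.99, 0.08 and 1.13, lowest on DKO d0.

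The Mir181c and Mir181d genes are neighbours with the same seed, a family known from lymphocyte development. Mir181d read 5.23, 5.15, 4.79 and 3.85. Mir181c read 3.09, 3.11, 2.66 and 1.66. Both were level between the WT arrays, with d2 differences of -0.09 and 0.02, and both were lowest on DKO d2. In DKO cells the d2 differences were -0.93 for Mir181d and -1.0 for Mir181c, and between genotypes at d2 they were -1.29 and -1.45. With quantile normalization the -1.29 of Mir181d was -0.98, short of 2-fold. At d0 the genotype differences were -0.45 and -0.43. The other genes within the same stretch, Mir23a and Mir27a, read at most 0.84. As neighbours that share a locus, Mir181c and Mir181d are not separate observations.

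From d0 to d2 in WT cells, 9 of the 107 genes differed at least 2-fold, 4 higher and 5 lower. That is 8.41%, against 0.355% of the 20015 genes counted (0.195% higher, 0.16% lower) and 2.29% of the 2581 other genes that also reached 1. Mir483 stood furthest, at 0.22, 3.08, 0.88 and 1.01, higher on WT d2 than on WT d0 by 2.86. It was high on WT d2 alone. Mir128-2, known from neurons, read 1.16, 3.04, 2.38 and 2.19, lowest on WT d0, and was higher at d2 by 1.87. Mir1191 and Mir5103 were higher by 1.14 and 1.03. On the lower side Mir339 read 2.59, 0.89, 0.83 and 1.22, high on WT d0 alone, with a difference of -1.70. Mir761 read 1.57, 0.29, 2.13 and 1.66, low on WT d2 alone. Its difference was -1.29. Mir466h, Mir328 and Mir680-2 differed by -1.28, -1.25 and -1.10.

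From d0 to d2 in DKO cells, 24 genes differed at least 2-fold, 13 higher and 11 lower. That is 22.4%, against 0.984% of all genes counted (0.62% higher, 0.365% lower) and 6.28% of the other genes that reached 1. Of the 13 higher, 7 reached 1 on DKO d2 alone, and of the 11 lower, 2 did so on DKO d0 alone. The rule chose those 9 by the same value that makes the difference, so nothing is read from the share. Mir7-1, which lies in Hnrnpk, read 1.02, 1.29, 1.21 and 2.78, high on DKO d2 alone. It was higher at d2 by 1.58. Mir346 read 0.96, 1.33, 1.86 and 3.38 and Mir345 read 1.63, 1.37, 2.47 and 3.86, so that both were higher in DKO than in WT and highest on DKO d2, with d2 differences of 1.51 and 1.39. Mir451a, the erythroid microRNA that Ago2 rather than Dicer1 matures, read 0.78, 0.53, 0.13 and 1.65, with a difference of 1.52. Mir26b read 0.36, 0.10, 0.08 and 1.44, reaching 1 on DKO d2 alone.

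On the lower side in DKO cells, Mir1946a read 3.25, 2.90, 4.12 and 0.19, and its difference of -3.93 was the largest among the 107 genes. It was high on 3 arrays and near the floor on DKO d2. Mir466h read 2.98, 1.71, 2.55 and 0.20, with a difference of -2.35. Mir1195, described above, differed by -2.23. Mir328 read 5.05, 3.81, 2.92 and 0.89, with a difference of -2.03, and was lower at d2 in both genotypes. Mir5099 read 1.17, 1.51, 3.23 and 1.34, high on DKO d0 alone, and its difference of -1.89 comes from that array.

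Between genotypes at d0, 9 genes differed at least 2-fold, 5 higher in DKO and 4 lower. That is 8.41%, against 0.355% of all genes counted (0.175% higher, 0.18% lower) and 2.25% of the other genes that reached 1. Mir186, among the 5 higher, reached 1 on DKO d0 alone. Mir5099 was higher by 2.06. Mir186, within Zranb2, read 0.28, 0.38, 1.89 and 0.27, high on DKO d0 alone, and was higher by 1.61. Mir3473a read 0.56, 1.16, 2.10 and 1.43, with both DKO arrays above both WT arrays, and was higher by 1.54 at d0. Mir128-2 and Mir3098 were higher by 1.22 and 1.13. The 4 lower genes were Mir328 (-2.13), Mir339 (-1.77), Mirlet7a-1 (-1.17) and Mir680-2 (-1.05). Mir339 and Mir680-2 were highest on WT d0, and Mir128-2 was lowest there. For these genes the same array sets the d2 difference in WT and the genotype difference at d0, so these are not separate observations.

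Between genotypes at d2, 24 genes differed at least 2-fold, 13 higher in DKO and 11 lower. That is 22.4%, against 0.964% of all genes counted (0.55% higher, 0.415% lower) and 5.97% of the other genes that reached 1. Of the 13 higher, 6 reached 1 on DKO d2 alone, and of the 11 lower, Mirlet7c-1 did so on WT d2 alone, so here too the rule and the count share values. Mir345 was higher by 2.49 and Mir346 by 2.05. Mir7-1, Mir761 and Mir26b were higher by 1.5, 1.37 and 1.34. The Mir761 difference rests on its low WT d2 value, since its other 3 values lie between 1.57 and 2.13. On the lower side the differences were -2.91 for Mir328, -2.71 for Mir1946a and -2.22 for Mir1195. Mir328 was lower in DKO on both days. Mir483 and Mirlet7a-1 differed by -2.07 and -1.82. Under quantile normalization Mir1960 was short of 2-fold, at -0.74 in place of -1.05.

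**Figure D3:**
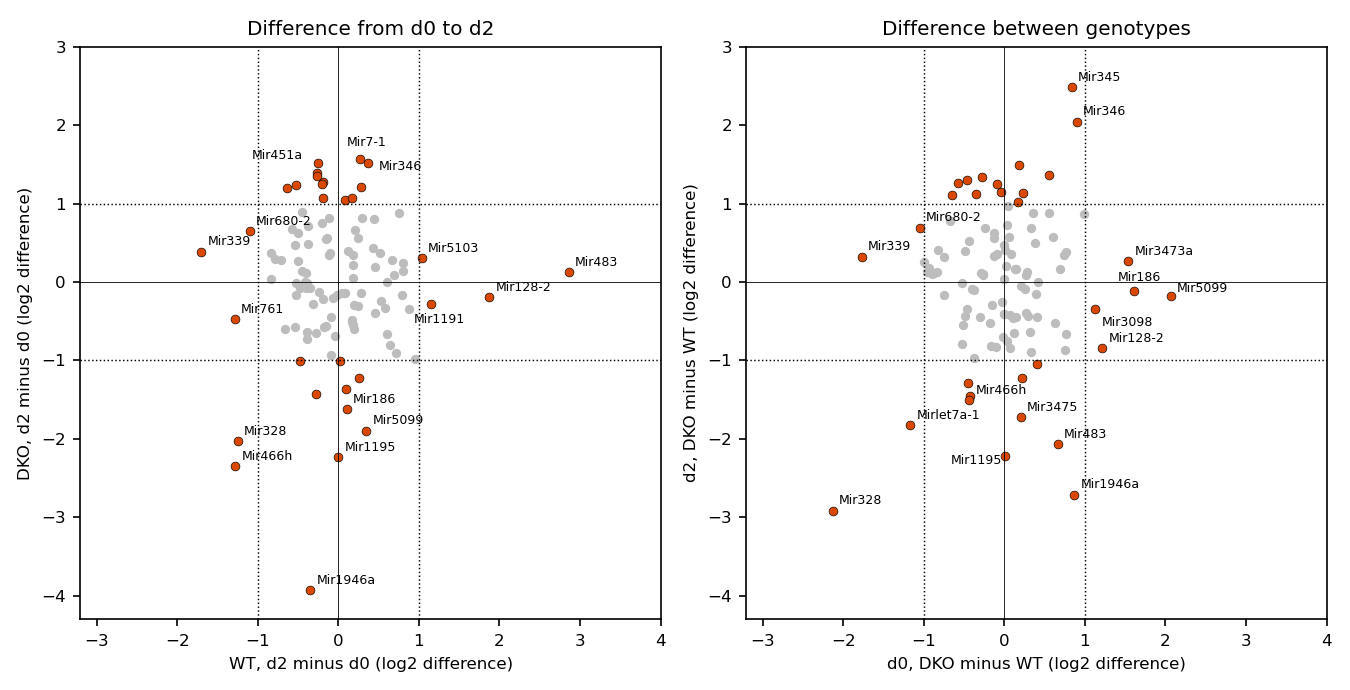
Log2 differences of the 107 genes, 1 point per gene: on the left the d2 minus d0 difference in WT (x) and in DKO (y), on the right the DKO minus WT difference at d0 (x) and at d2 (y); dotted lines mark 1 either way and orange points are genes at or past them in either of the 2 comparisons plotted. Mir328 and Mir466h lie past -1 on both axes on the left, and Mir328 and Mirlet7a-1 do on the right.

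Differences shared by both genotypes or both days were few. Mir328 and Mir466h were at least 2-fold lower at d2 in WT and in DKO, out of 2 such genes among all counted. Mirlet7a-1 and Mir328 were at least 2-fold lower in DKO on both days, out of 4 such genes. No gene of the 107 was at least 2-fold higher both times, and none was at least 2-fold apart in opposite directions. Among all 20015 genes counted, 4 were higher at d2 in both genotypes and 0 were higher in DKO on both days. Opposite directions occurred in 0 genes for the d2 difference and in 2 for the genotype difference. Such rare events make the absence among the 107 uninformative. Each difference from d0 to d2 shares its arrays with the genotype differences, so they are set side by side without an overlap test. In 39 genes at least 1 of the 4 comparisons was past 2-fold, and in 68 none was. The rule chose the 107 by these same values, so nothing is read from the 39 and 68.

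The DKO d2 array differed from the other 3 in these genes, as it did in other genes. Pearson correlations across the 107 genes ran from 0.931 to 0.934 among the other 3 arrays and from 0.842 to 0.853 with DKO d2. Across the 2581 other genes that reached 1, they ran from 0.881 to 0.889 and from 0.784 to 0.793. Genes are not independent replicates, and these correlations are a description. Of the 107 genes, 36 had their highest value and 36 their lowest on DKO d2, 33.6% each, against 34.7% and 27.1% of the other genes that reached 1. Where the other 3 arrays lay within 0.5 of each other, DKO d2 stood at least 1 above them in Mir7-1, Mir3961 and Mir26b and at least 1 below them in Mir1195 and Mir181c. Those 5 genes are 4.67% of the 107, against 1.59% of the other genes that reached 1. On DKO d2 alone 18 of the 107 genes reached 1, Mir3961 and Mir26b among them. The rule chose those by their DKO d2 values, so nothing is read from these shares or from the 33.6%. Comparisons without the DKO d2 array are the d2 difference in WT and the genotype difference at d0, and their counts of 9 and 9 stand above. Whether the array's quality or the cells set it apart was not tested.

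**Figure D4:**
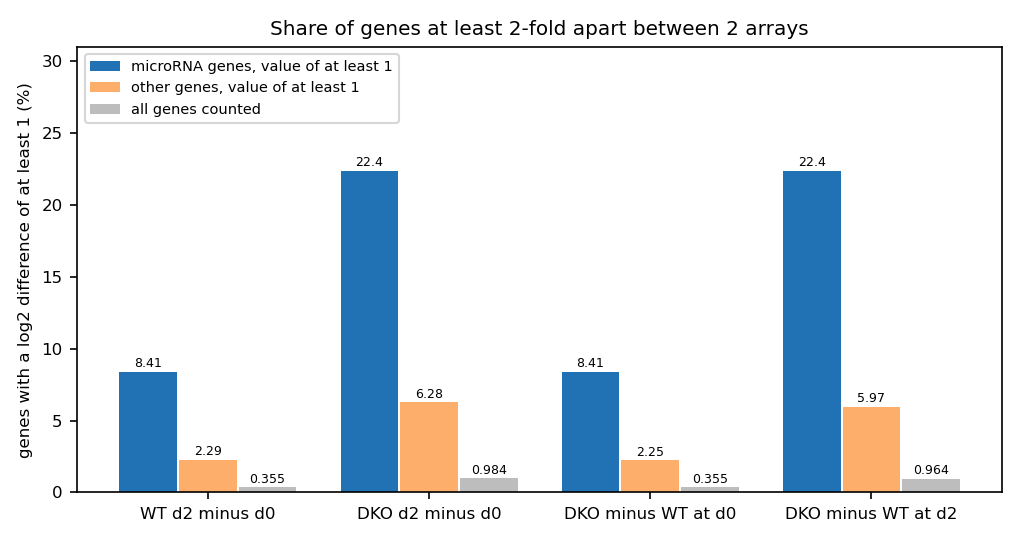
Percent of genes with a log2 difference of at least 1 either way in each of the 4 comparisons, for the 107 microRNA genes (blue), the 2581 other genes whose highest value is at least 1 (orange) and the 20015 genes counted (grey). The blue bars stand at 8.41, 22.4, 8.41 and 22.4, and both comparisons with DKO d2 are the higher ones in each colour.

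Shares of genes past 2-fold are set beside those of other genes that also reached 1, with level taken into account only in 2 broad bands. Among genes with a mean of at least 2, of which 33 were microRNA genes and 188 other genes, the shares were 12.1% against 3.19% for the d2 difference in WT and 30.3% against 15.4% in DKO. For the genotype difference they were 15.2% against 5.85% at d0 and 33.3% against 16.0% at d2. Below a mean of 2 the microRNA shares ran from 5.41% to 18.9% over 74 genes, and the others from 1.96% to 5.56% over 2393. The limit applies to both sets, genes that reached 1 on 1 array alone are in both, and no test was made of these shares. Both sets were chosen by the values compared, so nothing is read from the shares. The spread of the differences, as a robust SD, was 0.49, 0.76, 0.55 and 0.79 for the 107 genes in the 4 comparisons and 0.35, 0.48, 0.35 and 0.49 for the other genes that reached 1. Medians of the differences were -0.09, -0.00, 0.01 and 0.09, so as a group they lay near 0. The spread without replicates cannot be split into noise and response.

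The limma fit with genotype and day as additive terms found no gene at an adjusted p under 0.05 among 20015 for either term. At an unadjusted p under 0.05 there were 1031 genes for day (5.15%) and 984 for genotype (4.92%). Of the 107 genes, 19 (17.8%) and 18 (16.8%) were among these. The fit used the same 4 values by which the rule chose the 107, so nothing is read from these shares. Mir328 differed by -2.52 ± 0.42 (SE) between genotypes and by -1.64 ± 0.42 between days, with adjusted p of 0.943 and 0.923. Mir466h differed by -1.81 ± 0.35 between days with an adjusted p of 0.923. Mir345 and Mir346 differed by 1.66 ± 0.45 and 1.47 ± 0.36 between genotypes, each with an adjusted p of 0.943. With array medians set equal, 11 genes passed for day, Mir466h among them at an adjusted p of 0.0386, and 4 for genotype, Mir328 among them at 0.0326. With quantile normalization 1 gene passed for each term, neither of the 107, and the adjusted p was 0.0843 for Mir466h and 0.114 for Mir328.

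Clusters of microRNA genes were taken as genes with less than 50000 bases between neighbours. The Sfmbt2 cluster, a rodent-specific array of related microRNAs inside an intron of the imprinted gene Sfmbt2, had 22 genes on the array, of which 8 reached 1. Mir669a-3 read 4.36, 3.53, 4.32 and 4.68 and Mir669m-1 read 4.54, 3.87, 4.04 and 3.44, while the values of Mir466h are given above. Mir669a-3 was highest on DKO d2, and Mir669m-1 and Mir466h were highest on WT d0 and lowest on DKO d2. They belong to families of closely related copies, and cross-signal between copies was not tested. Sfmbt2 itself read 0.45, 0.43, 0.54 and 0.13. In the imprinted Dlk1-Dio3 region, a group of 10 genes had 3 that reached 1 and a group of 33 had 6. In those that reached 1, the differences lay between -0.83 and 0.88, and none was past 2-fold. Over all genes counted, 0.355% to 0.984% were past 2-fold either way, and 22.2% of all microRNA genes reached 1. Nothing about these clusters is read from their counts.

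Host genes were less than 2-fold apart wherever the microRNA gene they hold was past 2-fold and both were measured. Of the 107 genes, 73 lie within the span of another gene, called its host here whatever the strand. For 62 of them the host was also on the array. In 41 of these 62 pairs both genes lie on the same strand and in 2 on opposite strands. For the rest the strand was not given. The 62 pairs hold 54 different hosts, since Sfmbt2 and Dalrd3 hold several microRNA genes, so pairs are not all separate. The host had the higher mean in 5 of the 62 pairs, and its mean reached 1 in 2, Ryr1 with Mir1963 and Hnrnpk with Mir7-1. Where the microRNA gene was at least 2-fold apart, the host was at least 2-fold apart the same way in 0 of 7, 0 of 11, 0 of 5 and 0 of 14 pairs in the 4 comparisons. Over the 20015 genes counted, 0.16% to 0.62% were that far apart in a given direction. Counts of 0 are near that share, so nothing about the hosts is read from them. The largest host difference in those pairs was 0.28, 0.77, 0.35 and 0.65. Igf2, the growth factor gene that holds Mir483, read 0.43, 0.43, -0.04 and 0.76 while Mir483 was high on WT d2 alone. Zranb2, which holds Mir186, read between 0.13 and 0.31. Hosts at such low values could not show a 2-fold decrease.

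The genes of microRNA processing and of let-7 control were mostly below 1. Of 20 listed factors 19 had a probe set of their own, and 4 reached 1. Of all genes other than microRNA genes, 11.9% reached 1. Drosha, the nuclear nuclease, read 0.37, 0.33, 0.21 and 0.28, and Dicer1 read 0.35, 0.19, 0.29 and 0.07. Ago2, the Argonaute that cuts targets, read 1.33, 0.91, 1.32 and 1.06, and was higher at d0 than at d2 in both genotypes. Of the Lin28 genes, whose products block let-7 maturation, Lin28a read 0.39, 0.85, 0.77 and 1.60, and Lin28b read 0.57, 0.45, 0.13 and 0.35. The Lin28a value was highest on DKO d2, and that of Lin28b on WT d0. None of the 19 was at least 2-fold apart in any of the 4 comparisons, and limma called none of the 17 that passed the filter. Among the 20015 genes counted, 0.355% to 0.984% were 2-fold apart either way and limma called none. Nothing about the factors is read from their counts.

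The 107 genes differed in base composition from the microRNA genes below the limit. Hairpin sequences were in the RefSeq table as used for 85 of them and for 315 of the 376 microRNA genes below the limit. The median share of G and C was 54.4% in the first and 47.0% in the second. Hairpin length was similar, with medians of 82 and 84 bases. The share of microRNA genes that reached 1 was 5 of 61 (8.2%) where G and C were under 40% of the hairpin, and 21 of 160 (13.1%) between 40% and 50%. It was 37 of 133 (27.8%) between 50% and 60%, and 22 of 46 (47.8%) at 60% and over. Across the 400 hairpins the correlation of G and C with the mean value was 0.273 (Pearson) and 0.331 (Spearman), and across the 85 it was 0.122 and 0.164. Genes share probe chemistry and are not independent, so no test is given, and whether the composition sets the signal was not tested.

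**Figure D5:**
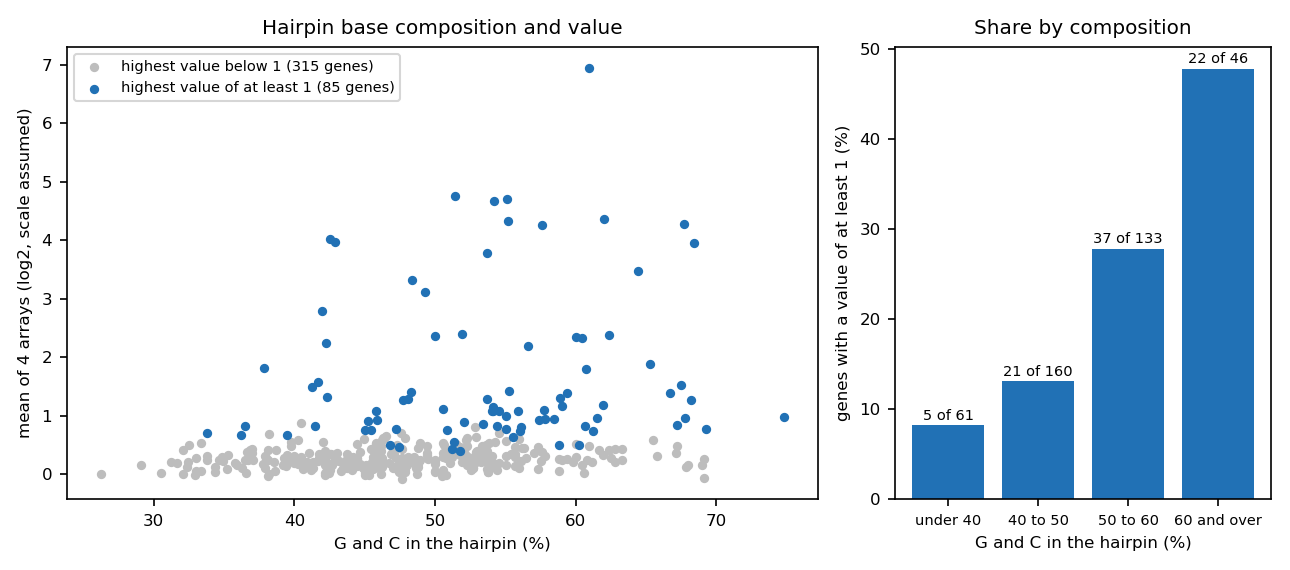
Left, mean of the 4 arrays (log2, scale assumed) against the percent of G and C in the hairpin for 400 microRNA genes, with the 85 that reached 1 in blue and the 315 others in grey; right, percent of microRNA genes that reached 1 in 4 bands of G and C, with counts above the bars. The share is 8.2% in the lowest band and 47.8% in the highest.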

How the data were processed

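Total RNA was labelled with biotin by a whole-transcript kit and hybridised to GeneAtlas arrays, per the labels' protocols. The authors deposited 1 table of log2 values. The submitters' processing notes name RMA without a version. RMA corrects background, normalizes probes between arrays and summarizes them per probe set. The table's log base is not written in it, and log2 is assumed. Most values lie between 0 and 1, low for RMA. The table was used as deposited. Whether other arrays were normalized with these 4 is not stated.

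Of 41345 probe sets, 23521 had 1 symbol in the platform annotation, 1814 several and 16010 none; symbols were updated through the RefSeq gene table for 23328. For counts over all genes and for limma, 20015 of 22180 genes were kept, those with at least 1 array at or above 0.30, the 40th percentile over the table. All 107 microRNA genes passed this filter through the limit on their highest value; 19 had an array below it. Of the 107, 5 had several probe sets.

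Differences of at least 1 (2-fold) were counted per comparison. The limma 3.58.1 fit in R 4.3.3 (eBayes with trend, additive genotype and day) had 1 residual degree of freedom (prior 7.21), used Benjamini-Hochberg adjusted p-values and was tested on simulated data. A d2 difference that differs between genotypes adds to its error. Python 3.11.15, pandas 2.3.3, numpy 2.4.6 and matplotlib 3.10.9 were used. Host genes and clusters were read from RefSeq spans of GRCm38.p6, and sequences from its microRNA table without the entries of a whole chromosome. The number of arrays limits the precision.

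The genes and lists were chosen with earlier results of these data known. Genes named are the 20 of highest mean, the 5 largest differences each way per comparison among those past 2-fold, genes past 2-fold both times, the listed families and factors (up to 6 per list), genes sharing a seed and the 3 nearest each side of the limit. Other genes, in clusters, host pairs and the DKO d2 comparison, were named after their values were seen. Alternatives were equal array medians, quantile normalization, averaging the probe sets of a gene or taking the one with the highest single value, a limit of 2, a 1.5-fold threshold, no filter, moderation without trend or robust, and an adjusted p under 0.1.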

Additional observations from a re-analysis of the deposited data

How the results depend on the processing

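Of 184 differences of 46 named microRNA genes, under 4 other settings each (equal array medians, quantile normalization, another probe set and averaged probe sets), 0 of 736 values changed sign while called. The size moved in 26, 23 of them under quantile normalization and 3, all of Mirlet7e, when its probe sets were averaged. Of the 46 genes only Mirlet7e had several probe sets, so the probe set settings could not change the others. Equal medians shift all values of an array by the same small amount and could not reverse a called difference. For most of these values quantile normalization was thus the only real check. The number of genes was 44 with a limit of 2 in place of 1. With that limit 14 were at least 2-fold apart from d0 to d2 in DKO. At 1.5-fold the counts were 27 and 46 for d0 to d2 in WT and DKO, and 32 and 47 between genotypes at d0 and d2. These counts stand without the share over all genes, and the rule chose the genes by the same values. Nothing about the genes is read from them. The limma calls were 11 for day and 4 for genotype with equal array medians and 1 each with quantile normalization. The cause was not tested. No paired analysis was possible because each group had 1 array and so no replicate numbers to pair, and the additive limma fit already compares genotypes within day and days within genotype. Low signal limits what can be read: a gene near 0 cannot show a 2-fold decrease.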

Other observations

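A further 136 probe sets carried a microRNA symbol together with other symbols and were left out above, since none can be assigned to 1 gene. Of these, 14 had a highest value of at least 1, and the highest of them was 4.59.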
